A study of Nematostella vectensis with 10 samples.

Results

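The genes *foxE-like* (NV2.25991), *foxL2* (NV2.14459), *GFI1B-like3* (NV2.25410) and *cnido-jun* (NV2.12897) are on a list of published cnidocyte genes assembled by the study. They are 4 of the 15 listed transcriptional regulators, *paxA* aside, whose names carry a model number (4 listed names carry none), and 4 of 24520 gene models in the files. They were chosen by name and by their behaviour in these libraries after *NvpaxA* knockdown, summed over transcript models and compared pair by pair with and without the replicate number as a block. Their levels and fold changes in that comparison are therefore a description and carry no test here. Bulk polyA RNA-seq was performed on whole wildtype *Nematostella vectensis* embryos, the starlet sea anemone, collected as gastrulae at 28 hours post fertilization after growth at 24°C. Knockdown embryos received an shRNA (short hairpin RNA for RNA interference) directed at *NvpaxA*, and control embryos scramble RNA at equal concentration, both by injection after fertilization. There were 5 libraries per group, each from a separate pool of about 1000 embryos. The study calls its replicates paired, and same-numbered libraries of both groups were taken here as the pairs. The labels give batch LA61 for replicates 1 and 2 of either group and LA70 for the other 3.

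Cnidocytes are the stinging cells of cnidarians. They arise from progenitors shared with neurons and neuro-glandular cells. Their pressurized capsule has a wall of minicollagens and holds toxins. A cascade of Sox, zinc finger and Pax transcription factors that includes NvPaxA acts in their development. Forkhead factors such as FoxE-like and FoxL2 bind DNA through a winged helix domain. GFI1B is known in vertebrates as a zinc finger repressor of blood cell development, and Jun is a basic leucine zipper protein that pairs with Fos as the factor AP-1.

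The libraries held 20037579 to 26883859 estimated counts. Levels are given as CPM, counts relative to the TMM-scaled library size, which compares libraries, and as TPM, which corrects for transcript length and compares genes. The targeted gene, *NvpaxA* (*paxA*, NV2.6786), stood at 14.9, 16.7, 23.1, 10.9 and 21.9 CPM in knockdown replicates 1 to 5, against 102, 118, 100.4, 79.2 and 111 CPM in control replicates 1 to 5. The knockdown mean was 17.1% of the control mean and the groups did not overlap, so the target went with the labels in every library. Whole embryos were measured, so fewer cells of a type and less RNA per cell cannot be told apart in any value below. The summed level of 7 cnidocyte markers (minicollagens *ncol1*, *ncol3* and *ncol4*, with *mcol1*, *Ngal*, *NEP3* and *NEP8*) was 1906 to 3059 TPM in the knockdown libraries and 2155 to 3068 TPM in the controls. The sum is mostly *ncol3*, and its members moved differently. The mean CPM in the knockdown was 107% of control for *ncol3* and 92.2% for *mcol1*, 74.2% for *ncol1* (lower in 5 of 5 pairs), 43.6% for *ncol4* (lower in 5 of 5 pairs without overlap) and 119% for *Ngal* (higher in 5 of 5 pairs). It was 63.0% for *NEP3* (lower in 4 of 5 pairs) and 80.8% for *NEP8* (higher in 3 of 5 pairs). These 2 genes were near the floor, with at most 22 and 8 counts per library. Of the 7, *NEP8* alone was listed at 0, in knockdown replicate 1 and in control replicate 4, and the replicate 4 library had the lowest sum of its group in both groups.

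*foxL2*, known in mammals for its part in ovary development, was higher after knockdown in each of the 5 pairs. Its level was 11.5, 16.7, 12.5, 12.9 and 16.6 CPM in knockdown replicates 1 to 5 and 8.31, 9.09, 8.79, 10.6 and 11.5 CPM in control replicates 1 to 5. These values rest on 275 to 458 counts per library in the knockdown and 188 to 262 counts in the controls. The lowest knockdown value, 11.549 CPM in replicate 1, lay just above the highest control value, 11.478 CPM in replicate 5. With library sizes left unscaled the groups overlapped, at 11.5 to 17.4 CPM in the knockdown and 8.19 to 12.6 CPM in the control, and they overlapped in TPM as well, at 10.9 to 15.8 TPM in the knockdown and 6.58 to 11.9 TPM in the control. The mean was 14.1 ± 2.43 CPM in the knockdown and 9.65 ± 1.33 CPM in the control (SD, n = 5 each), or 146% of control, with a log2 fold change of 0.54 ± 0.14 (SE). This is a fold of 1.46, under the 1.5-fold threshold of the study.

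*GFI1B-like3* was lower after knockdown in each of the 5 pairs. It stood at 9.67, 9.82, 12.7, 7.04 and 12.9 CPM in knockdown replicates 1 to 5, against 13.8, 15.1, 14.6, 15.1 and 17.3 CPM in control replicates 1 to 5. The counts were 163 to 354 per library in the knockdown and 313 to 396 in the controls. Every knockdown library lay below every control library in CPM, also with unscaled library sizes. In TPM the groups overlapped, at 5.01 to 10.4 TPM in the knockdown and 9.37 to 15.4 TPM in the control. The mean was 10.4 ± 2.42 CPM in the knockdown and 15.2 ± 1.33 CPM in the control (SD, n = 5 each), or 68.5% of control, and the log2 fold change was -0.54 ± 0.16 (SE). The spread was wider among knockdown libraries, with a coefficient of variation of 23.2%, than among controls, with 8.76%, where counting error alone would give 6.55% and 5.34%.

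*cnido-jun*, the Jun-type member, was likewise higher after knockdown in all 5 pairs, but the groups overlapped. Its level was 28.8, 35.7, 31.0, 19.8 and 29.3 CPM in knockdown replicates 1 to 5, against 21.9, 23.6, 23.3, 16.7 and 24.2 CPM in control replicates 1 to 5. Replicate 4 was the lowest library of both groups, and the other 4 knockdown libraries lay above every control. Replicate 4 also had the lowest summed marker level of both groups (1906 TPM in the knockdown, 2155 TPM in the control), whose part in the result was not tested. The counts behind these values were 459 to 807 in the knockdown libraries and 397 to 583 in the controls. The mean was 28.9 ± 5.76 CPM in the knockdown and 21.9 ± 3.06 CPM in the control (SD, n = 5 each), a log2 fold change of 0.40 ± 0.15 (SE).

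*foxE-like*, the most abundant of the 4, differed in direction between pairs. It was at 44.7, 46.8, 50.9, 39.9 and 56.1 CPM in knockdown replicates 1 to 5 and at 42.1, 43.2, 54.8, 43.0 and 42.9 CPM in control replicates 1 to 5. The knockdown library was the higher in 3 pairs and the lower in replicates 3 and 4, and the groups overlapped over most of their range. These are the deepest counts of the 4 genes, 925 to 1544 per library in the knockdown and 894 to 1372 in the controls. Mean levels were 47.7 ± 6.16 CPM in the knockdown and 45.2 ± 5.38 CPM in the control (SD, n = 5 each). The log2 fold change of 0.077 ± 0.11 (SE) had a 95% interval that held 0.

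**Figure D1:**
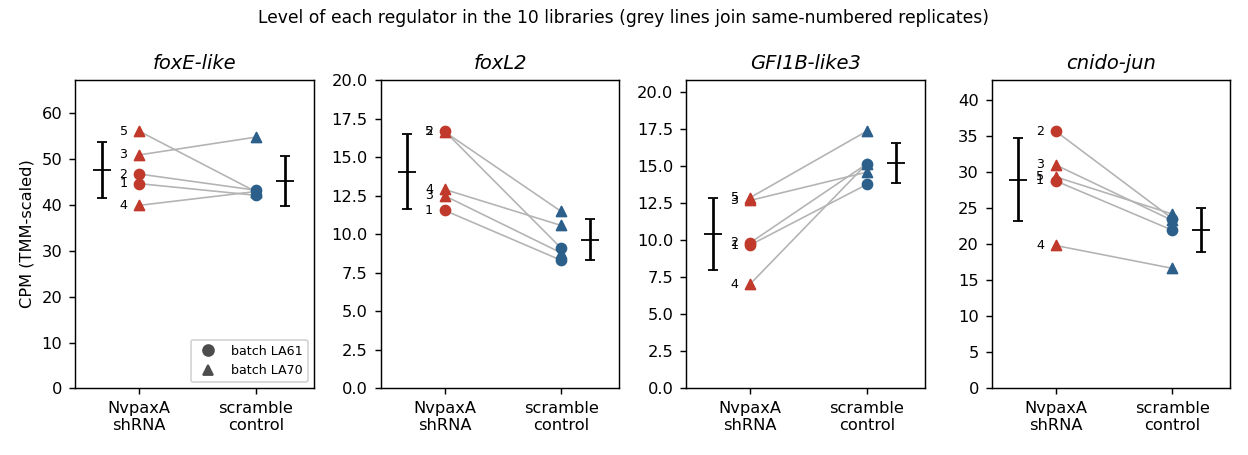
CPM of each regulator by library, with NvpaxA shRNA libraries on the left and scramble control libraries on the right of each panel, grey lines joining same-numbered replicates, circles for batch LA61, triangles for LA70 and black bars for mean ± SD (n = 5). The 5 foxL2 lines run down towards the control and the 5 GFI1B-like3 lines run up, replicate 4 of cnido-jun is lowest at both ends, and the foxE-like lines cross.

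The size of the difference varied from pair to pair. For *foxL2* the log2 ratio of knockdown to control was 0.47, 0.88, 0.51, 0.29 and 0.54 in pairs 1 to 5, and each 95% interval from counting error lay above 0. For *cnido-jun* the 5 ratios were 0.39, 0.60, 0.41, 0.25 and 0.28, again with every counting interval above 0. Pair 2 was the highest and pair 4 the lowest for both genes. *GFI1B-like3* had log2 ratios of -0.51, -0.62, -0.20, -1.11 and -0.43, so pair 4 held the largest difference and pair 3 the smallest, and the counting interval of pair 3, from -0.43 to 0.023, held 0. For *foxE-like* the ratios were 0.084, 0.11, -0.11, -0.11 and 0.39, and only that of pair 5 had a counting interval, 0.27 to 0.50, without 0. The SD of the 5 ratios was 0.14 for *cnido-jun*, 0.20 for *foxE-like*, 0.21 for *foxL2* and 0.33 for *GFI1B-like3*. These intervals cover counting error only. Polymerase chain reaction copies are not independent molecules, so the intervals may be too narrow even for that.

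**Figure D2:**
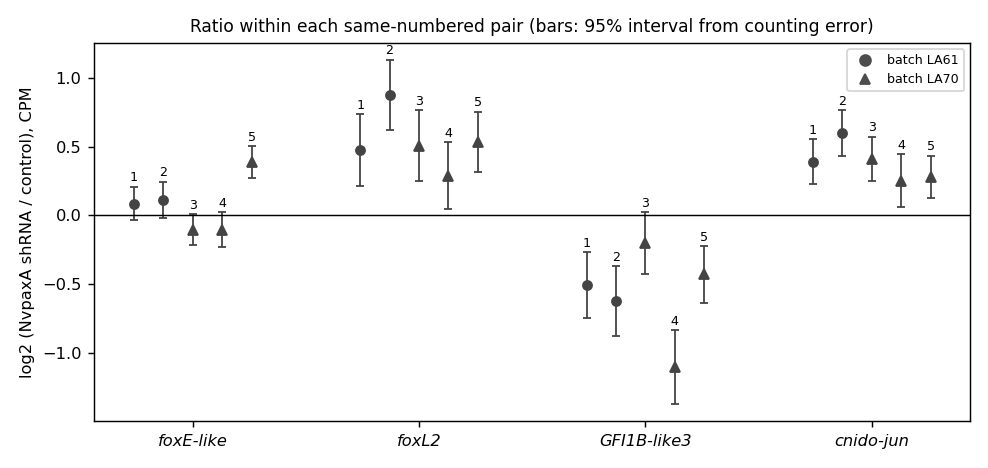
Log2 ratio of NvpaxA shRNA to scramble control CPM in each same-numbered pair (numbers 1 to 5), with 95% intervals from counting error, circles for batch LA61 and triangles for LA70. All 5 foxL2 and cnido-jun points lie above 0 and all 5 GFI1B-like3 points below it, with pair 4 lowest at -1.11, while foxE-like has 3 points above and 2 below 0.

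A gene was called at a Benjamini-Hochberg adjusted p of 0.05 or less in the edgeR quasi-likelihood test over 19110 genes and a fold of at least 1.5, the thresholds of the study. With group as the only term, 0 of the 4 genes were called, where 1.23% of all genes were, and 0 of 4 passed the adjusted p alone, which 1.29% of all genes passed. With the replicate number as a block, again 0 of 4 were called, against 1.75% of all genes, since the folds remained under 1.5. The adjusted p alone was passed by *foxL2*, *cnido-jun* and *GFI1B-like3* in the blocked fit, against 2.52% of all genes. That count of 3 rested on all 5 pairs: with pair 1, 3, 4 or 5 left out 1 of the 4 genes passed (*foxL2*, *GFI1B-like3*, *foxL2* and *cnido-jun* in that order), and with pair 2 left out 0 passed. With DESeq2 and no block, *foxL2* alone of the 4 passed the adjusted p. Same-direction pairs were seen in 3 of the 4 genes and in 14.0% of all genes tested, and groups without overlap in 2 of the 4 and in 2.02% of all genes. Because these contrasts chose the genes, nothing is read from the counts.

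The block left the fold changes nearly where they were and narrowed their errors. The log2 fold change of *foxL2* was 0.54 ± 0.10 with the block and that of *cnido-jun* 0.39 ± 0.082. *GFI1B-like3* had -0.57 ± 0.12 and *foxE-like* 0.075 ± 0.084 (SE). The biological coefficient of variation, edgeR's estimate of the spread beyond counting error, was 9.95% with the block and 18.3% without it for *cnido-jun*, the widest gap of the 4. It was 11.8% with and 17.2% without the block for *foxL2*, 14.0% and 18.5% for *GFI1B-like3*, and 10.2% and 13.9% for *foxE-like*. At the abundance of *cnido-jun* the trend over all genes was 12.0% with the block and 19.3% without it. The trend was 13.5% with and 21.6% without the block at the abundance of *foxL2*, 13.3% and 21.4% at that of *GFI1B-like3*, and 10.5% and 17.0% at that of *foxE-like*. The narrowing was thus not particular to these genes, which were also chosen with this block in view.

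Leaving out 1 library at a time kept the direction of all 4 genes. The log2 fold change of *foxL2* then ranged over 0.47 to 0.61 and that of *cnido-jun* over 0.31 to 0.51. It ranged over -0.63 to -0.43 for *GFI1B-like3*, nearest to 0 without knockdown replicate 4. For *foxE-like* it was 0.011 without knockdown replicate 5 and 0.16 without control replicate 3, and without the whole pair 5 the blocked value was -0.0015. Leaving out a whole pair from the blocked fit, an alternative added after the data were seen, moved 2 calls: *GFI1B-like3* was called lower without pair 3 (log2 fold change -0.67) and *foxL2* was called higher without pair 4 (0.59). In each of the 2 batches the direction was the same. Every pair of *foxL2*, *cnido-jun* and *GFI1B-like3* had that direction, so left-out libraries, left-out pairs and single batches could hardly change it. The kept sign is therefore no separate support. In LA61 alone, with 2 pairs, the log2 fold change was 0.68 ± 0.21 for *foxL2*, 0.49 ± 0.14 for *cnido-jun*, -0.58 ± 0.15 for *GFI1B-like3* and 0.088 ± 0.091 for *foxE-like*. In LA70 alone, with 3 pairs, it was 0.44 ± 0.18 for *foxL2*, 0.31 ± 0.22 for *cnido-jun*, -0.54 ± 0.24 for *GFI1B-like3* and 0.054 ± 0.17 for *foxE-like* (SE).

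The difference between batches, which did not enter the choice of the genes, was tested across all genes in the same libraries. Between batches, with group in the model, none of the 4 passed (edgeR quasi-likelihood test with Benjamini-Hochberg adjustment), and 1 of 19110 genes, 0.00523%, was called by edgeR. DESeq2 called 208 genes in the same comparison and 0 of the 4. The log2 difference of LA70 over LA61 was 0.12 ± 0.11 for *foxE-like* (adjusted p = 0.70), 0.11 ± 0.15 for *foxL2* (adjusted p = 0.79), 0.14 ± 0.16 for *GFI1B-like3* (adjusted p = 0.77) and -0.18 ± 0.15 for *cnido-jun* (adjusted p = 0.66). Batch belongs to whole pairs, while these fits took every library as separate. The SEs, p-values and batch calls thus make no allowance for levels shared within a pair. Whether the change after knockdown differed between batches rests on the same pair ratios by which the genes were chosen. For the 4 genes these values are thus a description, and no difference between batches was shown. The interaction of group and batch was -0.25 ± 0.30 for *foxL2*, -0.18 ± 0.31 for *cnido-jun*, -0.036 ± 0.23 for *foxE-like* and 0.038 ± 0.34 for *GFI1B-like3* (log2, SE), each with an edgeR adjusted p of 0.999. The 95% interval of that of *foxL2* ran from -0.90 to 0.41, so that a difference as large as the knockdown change itself lies within it. Over all genes the interaction called 0%, with 424 of 19110 genes at an unadjusted p under 0.05 in edgeR and 389 in DESeq2, which also called 0. With the replicate block the interaction had 2458 genes at an unadjusted p under 0.05 and called 1, and 0 of the 4.

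Levels that same-numbered libraries of both groups shared were tested with the 4 replicate-number terms beside group. Of the 4 genes, *cnido-jun* passed (edgeR adjusted p = 0.032, DESeq2 adjusted p = 0.0067), where 15.1% of all genes and 5 of the 15 regulators did. *foxL2* (adjusted p = 0.18), *foxE-like* (0.24) and *GFI1B-like3* (0.29) did not pass. The blocked fit by which *cnido-jun* was chosen holds the same terms, so its value is not independent of that choice.

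Per length, the 4 regulators fell at moderate places on the list, and the order of all but *foxE-like* differed between groups. Over the 10 libraries *foxE-like* averaged 41.7 ± 6.65 TPM, the fifth of the 15 regulators, and stood above 84.7% of all genes tested. *cnido-jun* followed with 14.97 ± 3.89 TPM at rank 8, *foxL2* with 10.6 ± 2.99 TPM at rank 10 and *GFI1B-like3* with 9.78 ± 2.76 TPM at rank 11 (SD, n = 10). *foxE-like* exceeded each of the other 3 in all 10 libraries, and *cnido-jun* exceeded *foxL2* in 10 and *GFI1B-like3* in 9 of the 10. Pooled over both groups, the means of *foxL2* and *GFI1B-like3* did not differ beyond their SDs. Within groups they did not mix: *foxL2* was the higher in all 5 knockdown libraries and the lower in all 5 controls. By group means, *cnido-jun* was at rank 7 in the knockdown (17.3 TPM) and 9 in the control (12.7 TPM), *foxL2* at 9 in the knockdown (12.8 TPM) and 11 in the control (8.52 TPM), and *GFI1B-like3* at 12 in the knockdown (8.12 TPM) and 10 in the control (11.4 TPM). Over all libraries the neighbours *cnido-jun*, *cnido-fos* and *coup-like2*, with means of 14.97, 14.2 and 15.7 TPM, were within 1 SD of each other. These SDs pool both groups, between which the order of *cnido-jun* and *cnido-fos* changed. By group means *cnido-fos* was at rank 10 in the knockdown (12.3 TPM), below *cnido-jun*, and at rank 7 in the control (16.1 TPM), above it.

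**Figure D3:**
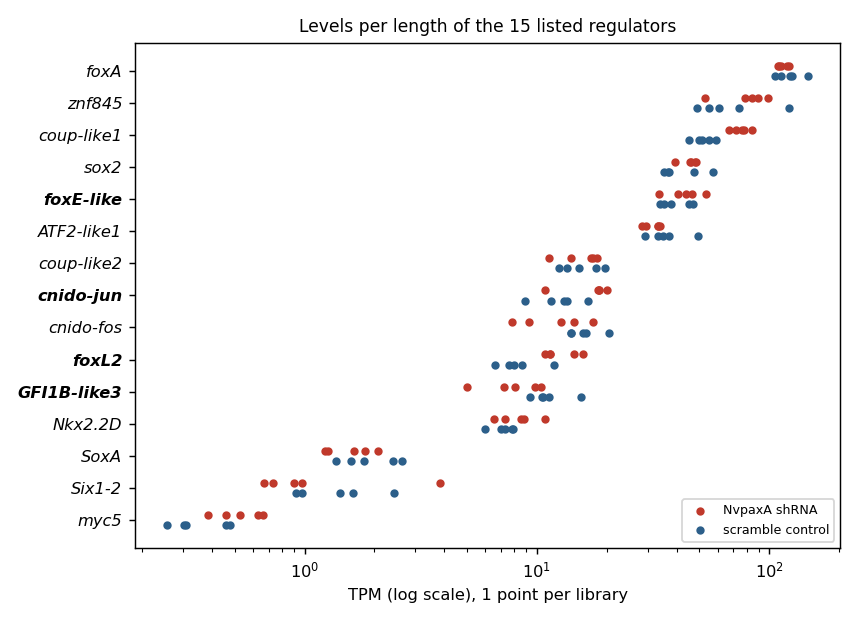
TPM on a log scale for the 15 listed regulators, ordered by mean, with 1 point per library, NvpaxA shRNA above scramble control in each row and the 4 regulators described here in bold. foxE-like lies at rank 5 between 33.5 and 53.6 TPM, and cnido-jun, foxL2 and GFI1B-like3 lie between 5.01 and 20.1 TPM.

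A ratio of 2 genes within a library does not depend on how libraries were scaled. The TPM ratio of *foxL2* to *GFI1B-like3* was 1.41, 2.00, 1.15, 2.17 and 1.51 in knockdown replicates 1 to 5, against 0.70, 0.71, 0.71, 0.82 and 0.77 in control replicates 1 to 5. Thus *foxL2* was the more abundant of this pair in every knockdown library and the less abundant in every control library. The ratio of *GFI1B-like3* to *foxE-like* was 0.15 to 0.21 in the knockdown and 0.23 to 0.34 in the control, again without overlap. The ratio of *foxL2* to *foxE-like* was 0.24 to 0.36 in the knockdown and 0.16 to 0.26 in the control, higher in all 5 pairs with some overlap. For *cnido-jun* to *foxE-like* it was 0.32 to 0.50 in the knockdown and 0.25 to 0.37 in the control, higher in 4 pairs. *cnido-jun* to *foxL2* came to 1.00 to 1.63 in the knockdown and 1.03 to 1.74 in the control, lower in all 5 pairs but overlapping almost entirely. The direction of these ratios is tied to the choice of the genes, and they are given for their size.

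Set against *ncol3*, a minicollagen gene of the capsule wall, 3 of the genes had the direction of their CPM, with overlap. *foxL2* was 0.66% to 1.00% of *ncol3* TPM in the knockdown libraries and 0.42% to 0.77% in the controls, and *cnido-jun* was 0.93% to 1.16% in the knockdown and 0.72% to 1.07% in the control, each higher in 5 of 5 pairs. *GFI1B-like3* was 0.38% to 0.66% of *ncol3* in the knockdown and 0.59% to 1.00% in the control, lower in 5 of 5 pairs. *foxE-like* was 2.13% to 3.40% in the knockdown and 2.14% to 3.52% in the control, higher in 2 of 5 pairs. Against a marker that was itself lower after knockdown the picture differed. *GFI1B-like3* was 3.39% to 5.88% of *ncol4* TPM in the knockdown and 2.26% to 3.70% in the control, higher in 5 of 5 pairs, and 4.46% to 8.23% of *ncol1* in the knockdown and 4.99% to 8.02% in the control, higher in 2 of 5 pairs. The other 3 genes were higher in 5 of 5 pairs, without overlap, against *ncol1* and against *ncol4*. Both minicollagen genes were themselves lower after knockdown in 5 of 5 pairs, and that fall enters each of these ratios. *foxE-like*, whose CPM overlapped between groups, separated in this way too. The share of all genes with such ratios was not counted, so nothing about the 3 genes is read from the separation. The direction of *GFI1B-like3* and *foxE-like* relative to capsule genes thus depended on the capsule gene.

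Relatives of the 4 genes were taken from the list by name. *foxA*, a forkhead gene of the pharynx in *Nematostella* and the most abundant listed regulator at 119 TPM, was at 129.9 ± 10.5 CPM in the knockdown and 144.7 ± 20.5 CPM in the control (SD, n = 5 each), lower in 4 of 5 pairs. *cnido-fos*, the Fos-type gene, was lower in 4 of 5 pairs, with 5.05, 4.82, 10.3, 8.25 and 8.14 CPM in knockdown replicates 1 to 5 and 9.31, 8.61, 9.95, 10.7 and 10.4 CPM in control replicates 1 to 5. Its log2 fold change was -0.42 ± 0.20 (SE), opposite in sign to that of *cnido-jun*, and the LA61 knockdown libraries were the lowest. The TPM ratio of *cnido-jun* to *cnido-fos* was accordingly 2.00 and 2.57 in the LA61 knockdown libraries and 0.85 to 1.26 in those of LA70, against 0.55 to 0.96 in the controls, and it was higher in all 5 pairs. *ATF2-like1*, of another leucine zipper family, was at 60.6 ± 2.03 CPM in the knockdown and 72.4 ± 7.58 CPM in the control (SD, n = 5 each), lower in 5 of 5 pairs without overlap and with a log2 fold change of -0.26 ± 0.086 (SE). In TPM its groups overlapped, at 28.4 to 33.8 TPM in the knockdown and 29.2 to 49.5 TPM in the control, and pair 1 turned round. *znf845*, a zinc finger gene of the cnidocyte cascade, was at 73.0 ± 12.9 CPM in the knockdown and 66.3 ± 18.7 CPM in the control, higher in 4 of 5 pairs.

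**Figure D4:**
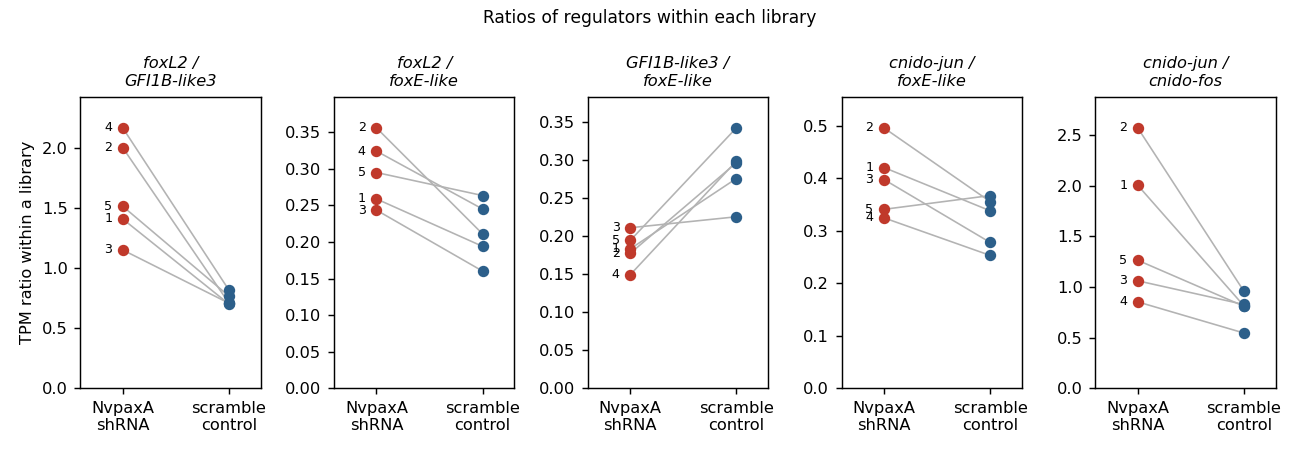
TPM ratio of gene pairs within each library, with NvpaxA shRNA libraries on the left and scramble control libraries on the right of each panel and grey lines joining same-numbered replicates. foxL2 over GFI1B-like3 lies between 1.15 and 2.17 in the knockdown and between 0.70 and 0.82 in the control, and cnido-jun over cnido-fos is highest in knockdown replicates 1 and 2.

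Over the 15 regulators, 0 were called in either fit. The adjusted p alone was passed by 1 without the block, *coup-like1*, a nuclear receptor gene, and by 4 with it, *coup-like1* and 3 of the genes described here. *coup-like1* was at 95.1 ± 9.73 CPM in the knockdown and 67.8 ± 3.74 CPM in the control (SD, n = 5 each), a log2 fold change of 0.49 ± 0.088 (SE) without overlap. Among the 11 other regulators, 5 had a log2 fold change above 0 and 6 below, with a median of -0.063, against a median of 0.0055 over all genes. Their range of -0.42 to 0.51 was about that of the 4 genes, -0.54 to 0.54.

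**Figure D5:**
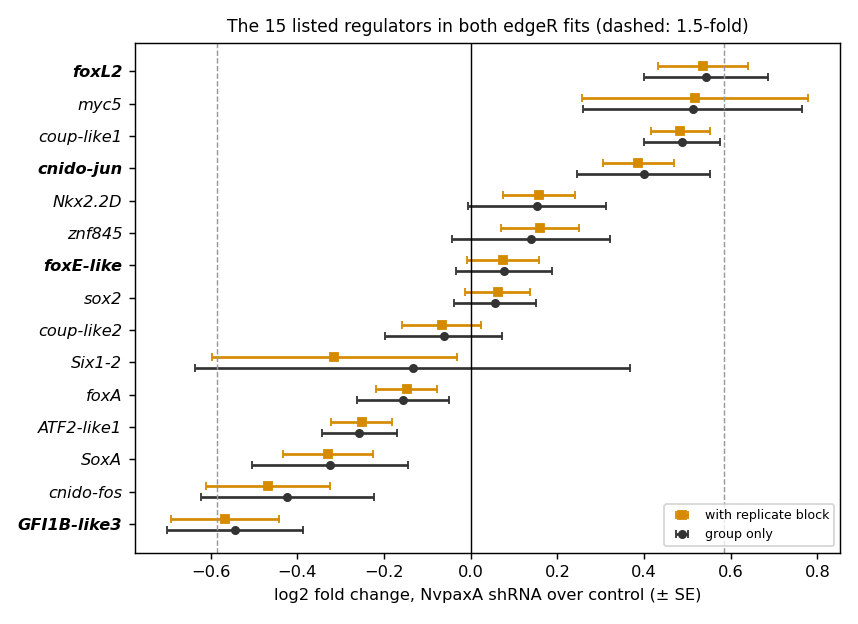
Log2 fold change (NvpaxA shRNA over scramble control, ± SE) of the 15 listed regulators in the edgeR fit with group only (circles) and with the replicate block (squares), with dashed lines at 1.5-fold (0.585) and the 4 regulators described here in bold. foxL2 at 0.54 and GFI1B-like3 at -0.54 lie at the 2 ends, and the squares have the shorter bars for all 4.

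Across libraries the genes whose pattern was most like each regulator were sought among 33 listed genes. The measure was the root-mean-square difference over the 10 libraries of log2 CPM, with 0.5 CPM added, after subtraction of group means. *cnido-jun* was nearest to *ggt* (0.11) and *ANTR2-like* (0.11), less than its own root-mean-square deviation of 0.24. *GFI1B-like3* was nearest to NVE13546 (0.16) and *foxE-like* (0.17), with an own deviation of 0.23. *foxE-like* was nearest to *myc5* (0.14) and NVE15733 (0.14) and *foxL2* to *sox2* (0.18) and *ATF2-like1* (0.18), hardly nearer than their own deviations of 0.15 and 0.19. *myc5* had only 17 to 33 counts per library in the knockdown and 11 to 24 in the control, so the added 0.5 CPM narrows its deviations. All of these values share the same 10 libraries and their scaling.

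The transcript models behind the sums were simple. *foxE-like* has 1 model of 1760 bases, *GFI1B-like3* 1 of 2024 bases and *cnido-jun* 1 of 2544 bases. *foxL2* has 3 models of 1844, 1756 and 4892 bases, and its second model took at least 97.1% of the gene's counts in each knockdown library and at least 88.9% in each control. Whether these genes share reads with close relatives, among which the quantification would divide them, was not tested.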

How the data were processed

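PolyA RNA of 5 *NvpaxA* shRNA and 5 scramble control pools of gastrulae was sequenced as paired-end reads, and reads were filtered and trimmed by the sequencing company. The authors quantified transcript models of the Nvec200 genome with Salmon and tested groups with DESeq2 on Galaxy, with versions not given in the sources used here. As deposited, the tables hold estimated counts and TPM for each of 35819 transcript models, with lengths. Estimated counts were summed over the models of each of 24520 gene models and rounded, and deposited TPM values were summed likewise. Values of near-identical genes are uncertain because the quantification divides shared reads. Gene names came from the study's list, where 38 of 42 names carry a model number, all found in the files. The RefSeq table matched 0 of the 4 genes, so sequences and coordinates are not analysed here.

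Genes were filtered with filterByExpr, scaled by TMM and tested with edgeR 4.0.16 in R 4.3.3 (quasi-likelihood F test, 19110 genes, group only, Benjamini-Hochberg adjustment). SEs came from the F statistic. The study calls its replicates paired. On that ground the numbers were taken to pair the samples, and the replicate block was fitted as an alternative. Deviations from group means correlated in same-numbered libraries at 0.13, 0.19, 0.43, 0.46 and 0.47, each above 0.1. Differently numbered libraries were not compared and same-numbered ones share a batch, so these correlations cannot show that the numbers pair the samples. Libraries of a group differed beyond sampling noise (smallest chi-square per degree of freedom 13.6). Depth was 20037579 to 26883859 estimated counts.

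Alternatives were RLE scaling, other low-count filters, DESeq2 1.42.0, batch as a covariate, a length offset, each batch alone, the most abundant transcript model, a call by adjusted p without the fold, and single libraries left out. Unscaled library totals, single batches with the block and left-out pairs were added once values had been seen. The fits were also run on simulated counts, whose only effects were those put in. For the knockdown these held no level shared within a replicate, so they cannot judge the blocked against the unblocked fit. The genes, lists and named-gene rule were chosen with earlier results of these data known. The text names the 4 genes, *paxA*, listed relatives (*foxA*, *cnido-fos*, *ATF2-like1*, *znf845*), other regulators passing the adjusted p, the 2 most alike listed genes of each and the markers. *coup-like2* was named after its values were seen, as a neighbour in level.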

Additional observations from a re-analysis of the deposited data

Results flagged for a closer look

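Control replicate 3 of *foxE-like* stood apart from the other controls at 54.8 CPM, where they lay between 42.1 and 43.2 CPM, so that its gap to the nearest of them was 0.91 of the whole range, above the critical value of 0.71 for 5 samples. Of the 8 groups looked at (4 genes in each of 2 groups) this was the only one, and chance flags about 1 in 20. Without it the log2 fold change of *foxE-like* was 0.16 in place of 0.077, and the knockdown library of the same pair was at 50.9 CPM. The gap depended on the scaling: it was 0.97 of the range with RLE scaling but 0.40 with unscaled library totals and 0.16 in TPM, under the critical value.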

How the results depend on the processing

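Over 28 alternatives the log2 fold change kept its sign for *foxL2* (0.44 to 0.68), *cnido-jun* (0.31 to 0.51) and *GFI1B-like3* (-0.67 to -0.43), and for *foxE-like* in 27, with -0.0015 when pair 5 was left out of the blocked fit. For *foxL2*, *cnido-jun* and *GFI1B-like3* the sign was nearly fixed beforehand, since every pair had the same direction and that contrast chose the genes. Over all genes 161 were called lower and 74 higher. The lower calls came to 58 in LA70 alone, and the higher calls to 114 with DESeq2, 141 with the replicate block, 267 in LA61 alone and 12 in LA70 alone. Of the listed regulators, 0 were called; the adjusted p alone passed 1 higher, and left-out pairs gave 0 to 1 lower and 0 to 1 higher in the blocked fit. Batch calls, 0 lower and 1 higher, came to 60 lower and 148 higher with DESeq2, to 1 lower and 0 higher within the knockdown libraries, to 2 higher within the controls and to 0 to 2 lower and 0 to 1 higher with 1 library left out. The interaction called 1 gene with the replicate block. The replicate block changed no other call of the 4 genes than those given above. The causes were not tested. Counts of 163 to 458 per library limit *foxL2* and *GFI1B-like3*, where counting error alone was 4.67% to 7.83% in single libraries.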
